A study of Mus musculus with 12 samples.

Results

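Mouse embryonic stem cell line 41589, which is labelled as having lost siRNA processing, was compared with line 41584, which is labelled as resembling wild type. Each line was represented by 2 libraries, so the comparison rests on 4 of the 12 libraries of the series. All 4 were taken by their labels. The other groups were wild type (WT), a Dicer knockout (KO), a complemented line named SOM and line 41585, labelled as processing neither miRNAs nor siRNAs. They entered the estimate of the spread, and 41585 also served as a reference for genes that respond when both kinds of small RNA are missing. All libraries came from 129/Ola E14 cells kept in 15% serum with 100 U/mL LIF on 0.2% gelatin, with 1 µg/mL puromycin, so no group was free of the drug. The labels give neither the Dicer sequence put back into each line, nor whether a line is 1 clone, nor whether the 2 libraries of a line came from separate cultures. The p-values therefore measure only the spread between these libraries.

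Dicer is the RNase III enzyme that cuts precursor hairpins into miRNAs and long double-stranded RNA into siRNAs. In embryonic stem cells the miR-290 and miR-302 families are among the abundant miRNAs and share a seed, and they repress inhibitors of the cell cycle and of self-renewal. Mouse endogenous siRNAs are best known from oocytes, where double-stranded RNA from pseudogenes and retrotransposons is cut into siRNAs that lower the matching mRNAs. In most somatic cells long double-stranded RNA is instead met by the interferon response. A line that has lost siRNA processing alone addresses the siRNA branch of Dicer with the miRNA branch in place.

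By its label 41589 has lost siRNA processing only, so miRNAs whose target genes are described further on are shown first, as a reference. They are members of the miR-290 and miR-302 families and let-7a, and their levels were not measured here. The sequences are from RefSeq (GRCm38.p6), 5′ to 3′, and capitals mark the seed, bases 2 to 8.
mmu-miR-291a-3p: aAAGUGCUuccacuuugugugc
mmu-miR-294-3p: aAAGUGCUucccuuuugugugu
mmu-miR-295-3p: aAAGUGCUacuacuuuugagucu
mmu-miR-302b-3p: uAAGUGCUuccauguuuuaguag
mmu-miR-302d-3p: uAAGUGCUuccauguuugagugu
mmu-let-7a-5p: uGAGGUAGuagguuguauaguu
The first 5 share the seed AAGUGCU. The miR-290 cluster members lie on chromosome 7 (miR-294-3p at chr7:3220691-3220712, plus strand) and the miR-302 members on chromosome 3 (miR-302b-3p at chr3:127545275-127545297, plus strand).

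The seed pairs with the 7-mer AGCACTT in a target. This 7-mer, searched on the sense strand in the longest annotated 3′ UTR of each gene (GENCODE M21), occurred in 2287 of 12999 tested genes with a UTR (17.6%). It occurred in all 14 tested genes of a list of reported miR-290/miR-302 targets, a list drawn up with such sites known. The sites of the 5 members that were lower in 41589 than in 41585 are printed here with up to 10 bases on each side, on the sense strand, with the 7-mer in capitals. For genes with several sites only those listed are shown.
Lats2, first site: gtatggaaagAGCACTTattttgtgga
Lats2, second site: tgtatctgatAGCACTTgtccacagct
Cdkn1a, first site: agacctgaatAGCACTTtggaaaaatg
Lefty1: ctgtatgcgaAGCACTTacatgtatag
Tgfbr2, first site: ggatagcgttAGCACTTgacaatcagt
Irf2: cttatcttgaAGCACTTacaataggcc
On GRCm38 these windows lie at chr14:57691077-57691103 and chr14:57690978-57691004 (Lats2, minus strand), chr17:29099818-29099844 (Cdkn1a, plus strand), chr1:180938203-180938229 (Lefty1, plus strand), chr9:116089871-116089897 (Tgfbr2, minus strand) and chr8:46846654-46846680 (Irf2, plus strand).

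The 4 libraries held 7264826 and 7127320 counted reads in 41584 and 9618517 and 10428509 in 41589. Values per library are CPM (reads scaled to a common total, with TMM factors), a scale that corrects for depth and composition but not for gene length. They are given as replicate 1, then replicate 2, of each line.

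The replicates of both lines were uneven. Among 10461 genes with a mean of at least 5 CPM over the 12 libraries, 16.7% differed 2-fold or more between the 2 libraries of 41584 and 15.9% between those of 41589. In the other 4 groups the same share was 1.05 to 5.5%. The 2 lines differed less from each other than within themselves when their first libraries were paired (3.36% of genes). The second libraries differed at 13.9%, and the crossed pairs at 8.07 and 11.7%. Replicate 1 of 41584 correlated more closely with replicate 1 of 41589 (r = 0.977 over genes of these 2 libraries) than with its own replicate 2 (r = 0.935). Replicate 2 of 41584 was closer to replicate 1 of 41589 (r = 0.964) than to replicate 2 of 41589 (r = 0.959). Over the 12 libraries, the first libraries of both lines correlated most closely with replicate 2 of WT (r = 0.98 each). The second libraries did so with replicate 2 of SOM (r = 0.978 for 41584 and 0.976 for 41589). No label pairs the libraries by number. Genes are not independent replicates, and these r values are descriptions.

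**Figure D1:**
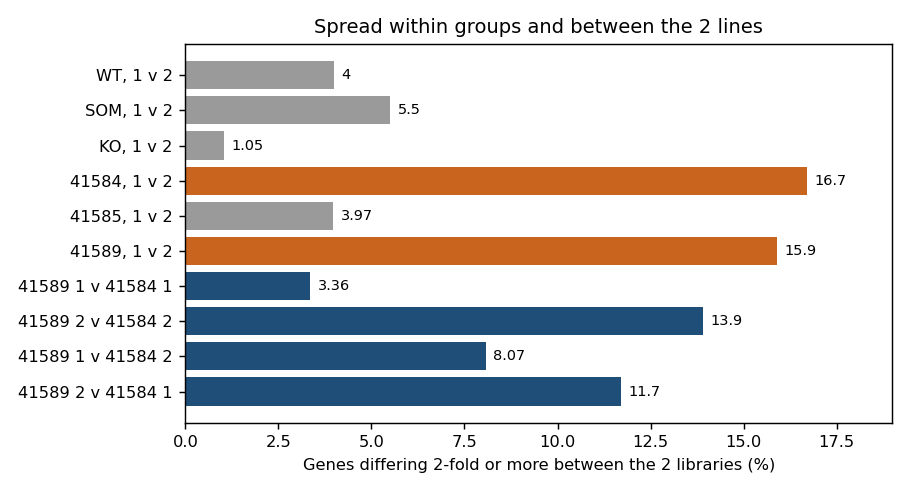
Share of genes (%, x axis) that differ 2-fold or more between 2 libraries, for the 2 libraries of each group (grey, and orange for the lines compared) and for the 4 pairs of libraries across the lines (blue). The bars of 41584 (16.7%) and 41589 (15.9%) are longer than those of all 4 cross-line pairs.

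The direction of the line difference depended on which pair of libraries was read. A 2-fold or larger difference in the same direction in both same-numbered pairs was found for 54 genes (0.369% of those tested). A 2-fold or larger difference in opposite directions was found for 463 genes (3.16%).

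**Figure D2:**
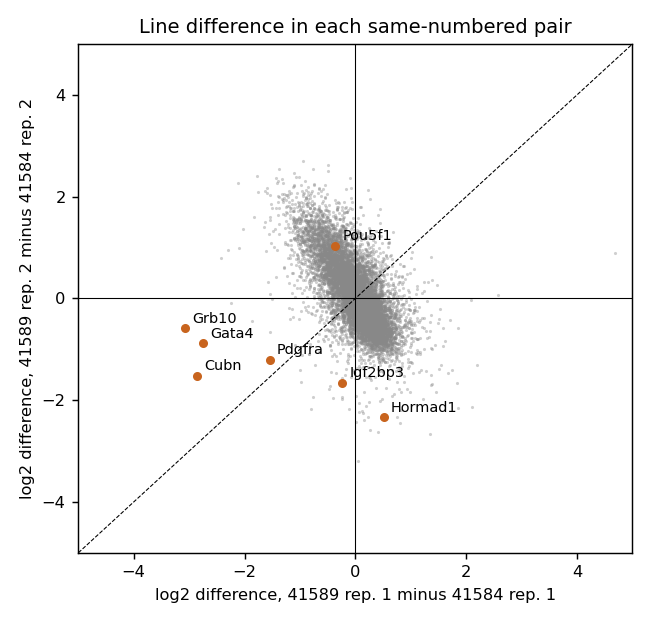
The log2 difference between 41589 and 41584 in the replicate 1 pair (x axis) against the replicate 2 pair (y axis), 1 grey point per gene with a mean of at least 5 CPM over both lines (10294 genes, 2 of them outside the axes), with 7 genes named in the text in orange. The dashed line marks equal differences; the cloud runs across it, from the upper left to the lower right.

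The replicate differences correlated with the GC content of the transcripts. Over 10448 genes the difference between replicate 2 and replicate 1 correlated with GC content at r = -0.349 in 41584 and r = 0.662 in 41589. The fitted difference between the lines correlated with GC at r = 0.503. In the lowest of 4 equal groups of genes by GC (30.8 to 45.8%) the median log2 difference was 0.298 in the replicate 1 pair and -0.545 in the replicate 2 pair. In the highest group (54.4 to 70.7%) it was -0.382 and 0.83. The sign of the GC trend was thus opposite in the 2 pairs, and the fitted line difference kept the weaker remainder, from -0.129 to 0.255. Chromosome 15 (417 genes) stood apart within 41584, where its median log2 difference between replicate 2 and replicate 1 was -0.626. In 41589 its median of -0.237 lay among those of other chromosomes, such as -0.321 for X and -0.282 for 13. Between the lines the chromosome 15 median was 0.052 in the fit. It was -0.133 in the replicate 1 pair and 0.367 in the replicate 2 pair, the highest of any chromosome in that pair. Rangap1, Trib1, Galnt6 and Smc1b, described below, lie on chromosome 15. What these patterns contribute to each result below was not tested, except where a value with the GC trend removed is given.

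**Figure D3:**
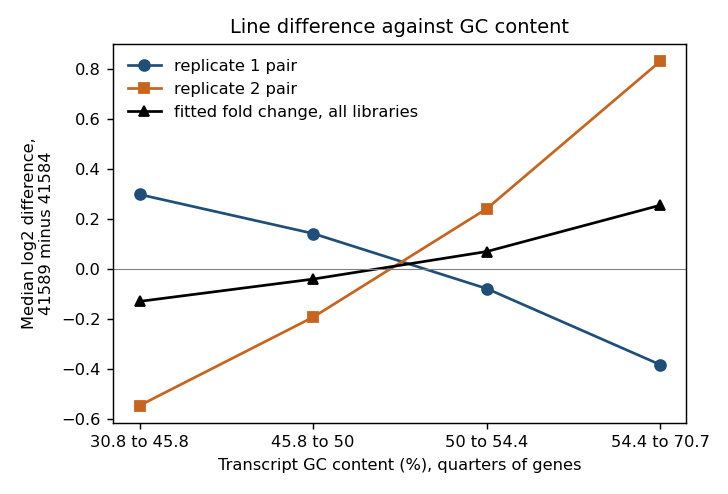
Median log2 difference, 41589 minus 41584 (y axis), in 4 equal groups of genes by mean transcript GC content (x axis, %), for the replicate 1 pair, the replicate 2 pair and the fitted fold change. The replicate 1 pair falls from 0.298 to -0.382 and the replicate 2 pair rises from -0.545 to 0.83.

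No gene was called different between 41589 and 41584. Of 14629 genes tested with edgeR's quasi-likelihood test, 0 were called at an adjusted p under 0.05 (0%), and the smallest adjusted p was 0.9998. Unadjusted p was under 0.05 for 103 genes (0.704%), of which 50 were higher (0.342%) and 53 lower (0.362%) in 41589. DESeq2 called 0 genes and gave 94 at an unadjusted p under 0.05. Both libraries of 41589 lay above both of 41584 for 894 genes (6.11%) and below them for 673 (4.6%), together 10.7% of genes. The median half-width of the 95% interval of the log2 fold was 0.85 over all genes, 0.69 over the 10294 genes of at least 5 CPM in the lines and 0.56 over the 4156 genes of at least 50 CPM. These medians describe the precision and are not a detection limit for a single gene. The same fit called 1219 genes (8.33%) between 41589 and 41585, of which 455 (3.11%) were higher and 764 (5.22%) lower in 41589. That comparison uses the same 2 libraries of 41589, and the difference between both comparisons is the difference between 41584 and 41585, which was not tested here.

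A few genes were called when libraries or filters were changed. With the second library of 41589 left out, and also with the first library of each line alone, the only gene called was the imprinted Grb10. With the second libraries alone, H2afy (2.21, adjusted p = 0.0383) and Fam193b (2.66, adjusted p = 0.0383) were called higher and the predicted gene Gm10324 (-2.65, adjusted p = 0.0457) lower, in log2. H2afy held 985 and 119 reads in 41584 and 653 and 932 in 41589, so the low value was that of the second 41584 library. Without the filter on low counts Cubn (-2.59, adjusted p = 0.00879), Adgrg6 (-2.71, adjusted p = 0.00904) and Olfr701 (-7.32, adjusted p = 0.00904) were called lower. Olfr701, an olfactory receptor gene, had 34 reads in the second 41584 library and 0 in the other 3. In no other alternative run was a gene called in this comparison.

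Dicer1 (chr12:104687742-104751952, minus strand; the enzyme itself) was at 42.3 and 55.0 CPM in 41584 and at 40.2 and 27.8 CPM in 41589. Both 41589 libraries lay below both 41584 libraries, by a log2 fold of -0.52 ± 0.34 (SE; unadjusted p = 0.156; not called). In WT it stood at 198 and 214 CPM and in KO at 28.5 and 44.0 CPM, so both lines were near the KO level in the reads assigned to the mouse gene. Line 41585 was there too, at 29.1 and 39.2 CPM, whereas SOM was higher, at 105 and 215 CPM. The sources used here do not say how reads of the sequence put back were counted. Of 24 tested genes of the small RNA machinery 0 were called, 1 had both 41589 libraries higher and 1 lower (6.11% and 4.6% of all genes), and the median log2 difference was -0.051 against 0.011 over all genes. Lin28b, which blocks maturation of let-7, was the gene with both libraries higher. It stood at 26.3 and 41.0 CPM in 41584 and 51.4 and 41.9 CPM in 41589 (0.47 ± 0.27, unadjusted p = 0.103), with the difference in the first pair.

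Since nothing was called, the 8 genes with the smallest p in each direction are given as a description. They had at least 5 CPM in the higher line and libraries that did not overlap, and none was called. The higher genes were Mterf4, Trib1, Robo4, Sema6c, Galnt6, Caml, Nptx2 and Ccdc3, with log2 folds of 0.61 to 1.24 and unadjusted p of 0.0118 to 0.0277. Mterf4, a factor of mitochondrial ribosome assembly, stood at 15.7 and 19.4 CPM in 41584 and 29.1 and 30.3 CPM in 41589. Its fold of 0.76 ± 0.26 was carried by both pairs (0.88 and 0.64 in log2). Ccdc3, which encodes a secreted protein, was at 21.2 and 18.7 against 38.6 and 29.3 CPM (0.77 ± 0.31), again higher in both pairs. These 2 genes and Galnt6, a glycosyltransferase of mucin-type O-glycosylation (23.4 and 23.8 against 33.8 and 38.2 CPM; 0.61 ± 0.24), had values close between the pairs.

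Among the other higher genes, Robo4, Sema6c and Nptx2 differed mostly in the second pair. Trib1 (0.58 and 1.00 in log2) and Caml (0.61 and 1.09) differed in both pairs, more in the second. Robo4, a receptor of the roundabout family, was at 3.07 and 3.42 CPM in 41584 and 4.17 and 11.1 CPM in 41589 (1.24 ± 0.47). Sema6c, a transmembrane semaphorin, was at 5.24 and 2.49 against 6.20 and 11.7 CPM (1.20 ± 0.46). Nptx2, a neuronal pentraxin, was at 17.1 and 6.53 against 20.5 and 26.2 CPM (0.97 ± 0.39). For each of the 3 the higher value rested on the second 41589 library, the second 41584 library or both. Trib1, a pseudokinase adaptor of protein degradation, was at 13.9 and 12.3 against 20.96 and 24.8 CPM (0.80 ± 0.31). Caml, which takes part in inserting tail-anchored membrane proteins, was at 9.08 and 6.37 against 14.0 and 13.9 CPM (0.85 ± 0.33). Against 41585, Galnt6 was lower in 41589 (-1.40 ± 0.24, adjusted p = 0.00514), as were Trib1 (adjusted p = 0.0298) and Robo4 (adjusted p = 0.0443), while Ccdc3 was higher (1.64 ± 0.32, adjusted p = 0.00993). Each of these 4 calls was lost when the first library of 41585 was left out, a fit with 1 library of that line.

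The lower genes were Adgrg6, Cubn, Gata4, L3mbtl3, Zc3h12c, Igf2bp3, Pdgfra and Zfp992, with log2 folds of -1.07 to -2.74. Adgrg6, an adhesion G protein-coupled receptor, was at 1.92 and 8.71 CPM in 41584 and 0.321 and 1.19 CPM in 41589 (-2.74 ± 0.70, unadjusted p = 0.00186). This is the smallest unadjusted p among the 16 genes, at 15 and 56 reads against 3 and 13. The gene was at 29.0 and 49.4 CPM in 41585, and 41589 was lower than 41585 by a log2 fold of -5.64 ± 0.72 (adjusted p = 0.000972), a call made in all 11 settings run for that comparison. L3mbtl3, a reader of methylated lysine, was at 9.59 and 12.8 against 4.81 and 5.75 CPM (-1.07 ± 0.39), alike in both pairs (-0.96 and -1.11).

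The remaining lower genes outside the endoderm markers differed mainly in the second pair. Zc3h12c, of the family of RNases that includes Regnase-1, was at 4.60 and 6.995 against 2.89 and 1.37 CPM (-1.45 ± 0.53). Igf2bp3, an RNA-binding protein and a let-7 target, was at 30.9 and 73.5 against 26.2 and 23.1 CPM (-1.08 ± 0.40), so the high value was that of the second 41584 library. Zfp992, a zinc-finger gene in a cluster of similar genes on chromosome 4 whose reads can be hard to assign, was at 137 and 254 against 115 and 66.2 CPM (-1.11 ± 0.44).

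No primitive endoderm marker was called, although 11 of the 12 tested had a fold below 0, and the size of the difference moved with the first 41584 library. These genes mark the extraembryonic lineage that sits beside the epiblast and that serum cultures of embryonic stem cells can hold in small numbers. Of 15 listed markers 12 were tested, 0 were called, 6 had an unadjusted p under 0.05, all lower (0.362% of all genes), and both 41589 libraries lay below both 41584 libraries for 5 (4.6% of all genes). The median log2 fold was -1.245, against 0.011 over all genes tested. Cubn, an endocytic receptor of visceral endoderm, was at 38.9 and 8.08 CPM in 41584 and 5.13 and 2.65 CPM in 41589 (-2.60 ± 0.76, unadjusted p = 0.0047). Gata4, a transcription factor of the lineage, was at 10.9 and 1.40 against 1.39 and 0.639 CPM (-2.61 ± 0.79). Pdgfra, a receptor tyrosine kinase of its precursors, was at 13.9 and 4.97 against 4.60 and 2.01 CPM (-1.53 ± 0.59). In these 3 genes the lines did not overlap, and the first 41584 library stood well above the second.

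Gata6 was the exception among them, as its 2 libraries were even in each line. This lineage regulator was at 5.11 and 4.35 CPM in 41584 and 1.28 and 1.10 CPM in 41589 (-1.98 ± 0.77, unadjusted p = 0.0228). The lines differed about equally in both pairs (-1.80 and -1.77). Dab2, an endocytic adaptor, was at 33.5 and 4.20 against 6.84 and 3.93 CPM (-1.82 ± 0.73), and Col4a1, a collagen of basement membrane, at 77.7 and 12.6 against 14.2 and 21.9 CPM (-1.32 ± 0.59). Both overlapped between the lines, and Col4a1 was higher in 41589 in the second pair. Among the less specific basement membrane genes, Lama1 stood at 119 and 115 against 40.6 and 121 CPM and Lamc1 at 304 and 396 against 234 and 454 CPM, with no common order.

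The median of the list moved with single libraries. Its median log2 fold was -2.08 without the second 41584 library, -0.34 without the first, -1.98 with the first libraries of both lines alone and 0 with the second libraries alone. It was -1.27 with the GC trend removed. The summed level of the 12 tested markers was 789 and 686 CPM in 41584, 421 and 777 CPM in 41589 and 291 to 301 CPM in WT. In both lines most of this sum came from Lamc1 and Lama1, given above. By gene, WT stood at 6.34 and 3.17 CPM for Cubn and 3.71 and 3.17 CPM for Gata4. It stood at 4.49 and 3.50 CPM for Pdgfra and 2.94 and 0.766 CPM for Gata6. For none of these genes did both 41589 libraries lie above both WT libraries, unlike in the sum. Of the untested markers, Sox17 had 13 and 3 reads in 41584 and 2 and 1 in 41589, and Foxa2 5 and 1 against 2 and 2. Fewer cells of this kind and less RNA per cell cannot be told apart in bulk libraries.

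**Figure D4:**
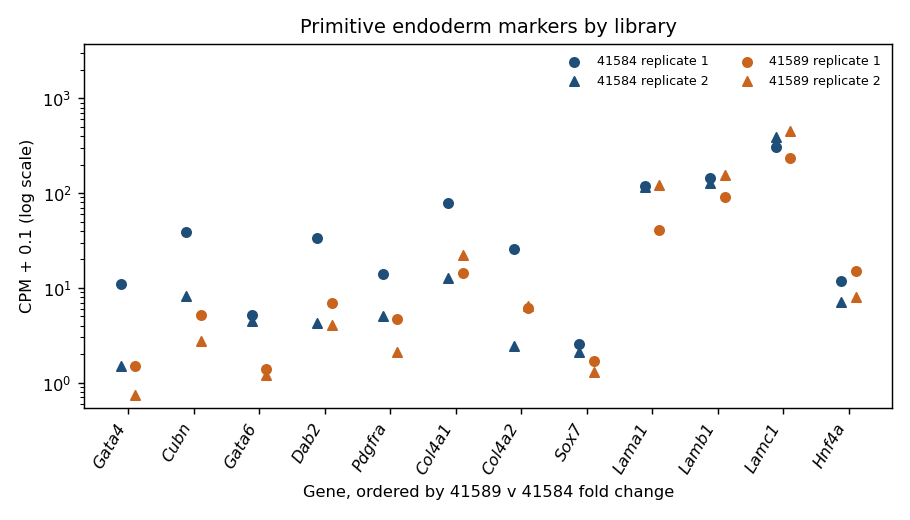
Level of the 12 tested primitive endoderm markers (CPM + 0.1, log axis) in the 4 libraries, ordered by fitted fold change; circles are replicate 1 and triangles replicate 2, blue 41584 and orange 41589. For Gata4, Cubn, Dab2 and Col4a1 the first 41584 library lies apart above the other 3, whereas for Gata6 the 2 libraries of each line lie together.

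None of the genes reported as siRNA targets in oocytes was called between the lines. All 5 listed were tested (Ppp4r1, Rangap1, Hdac1, Kif4 and Pdzd11), 0 were called, 0 had an unadjusted p under 0.05 and all overlapped between the lines. Their median log2 difference was 0.105, against 0.011 over all genes. Ppp4r1, a regulatory subunit of protein phosphatase 4, stood at 53.2 and 86.6 CPM in 41584 and 58.7 and 94.5 CPM in 41589 (0.13 ± 0.27, 95% interval -0.46 to 0.73). Rangap1, the GTPase activator of nuclear transport, stood at 201 and 114 against 159 and 234 CPM (0.32 ± 0.34, -0.41 to 1.06). Hdac1, a histone deacetylase, stood at 132 and 225 against 159 and 225 CPM (0.11 ± 0.28, -0.50 to 0.71). The intervals thus leave room for about a 2-fold rise of Rangap1 and less of the other 2. Rangap1 lies on chromosome 15, whose median was lower in the second 41584 library. Its log2 difference between the lines was -0.33 in the first pair and 1.04 in the second. What the shift of that chromosome contributes was not tested. Kif4 and Pdzd11 overlap in the genome on the X chromosome, and the sources used here do not say whether the counting used strand. Their log2 differences were -0.05 ± 0.22 and -0.01 ± 0.28.

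None of the reported targets of the miR-290 and miR-302 families was called between 41589 and 41584. Of 14 tested, 0 were called, 0 had an unadjusted p under 0.05, and the median was -0.046. In the comparison of 41589 with 41585, 5 of the 14 were called lower in 41589 and 0 higher, against 5.22% and 3.11% of all genes. Lats2, a kinase of the Hippo pathway that slows the cell cycle, was at 2.81 and 8.55 CPM in 41584, 3.42 and 6.48 CPM in 41589 and 24.0 and 35.5 CPM in 41585. It differed from 41584 by -0.18 ± 0.55 (95% interval -1.37 to 1.02) and from 41585 by -2.58 ± 0.55 (adjusted p = 0.0152). Cdkn1a, the CDK inhibitor p21, was at 68.9 and 25.8, 46.5 and 40.6, and 119 and 138 CPM. Its difference was -0.12 ± 0.37 (-0.93 to 0.68) from 41584 and -1.56 ± 0.38 from 41585 (adjusted p = 0.025). In both genes the 41585 libraries lay above all 4 libraries of the other lines.

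The other 3 were at low levels in both lines. Lefty1, an inhibitor of Nodal signalling, was at 3.45 and 4.82 CPM in 41584, 5.88 and 7.12 CPM in 41589 and 45.3 and 34.0 CPM in 41585. Its values in 41589 were above those in 41584 without overlap (0.66 ± 0.48, unadjusted p = 0.193) and below 41585 (-2.60 ± 0.47, adjusted p = 0.00687). Tgfbr2, the type II TGF-beta receptor, was at 2.17 and 1.55, 1.39 and 1.10, and 6.32 and 3.99 CPM, with -0.59 ± 0.52 from 41584 and -2.04 ± 0.50 from 41585 (adjusted p = 0.027). Irf2, a transcription factor of the interferon system, had 0 and 0.155 CPM in 41584, 0.107 and 0.0913 CPM in 41589 and 7.96 and 14.7 CPM in 41585, and 41589 was lower than 41585 (adjusted p = 0.00221). Only Irf2 kept its call in all 11 settings of that comparison. It was near 0 in both lines, so only a lower level than in 41585 could be found for it. In the 4 libraries of 41584 and 41589 alone, 13 of the 14 passed the count filter. With a library left out, fewer of the 14 were called. Over all genes with a 3′ UTR, those with the 7-mer had a median log2 difference of -0.03 from 41584, against 0.034 for those without, and 0.025 from 41585, against 0.003.

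**Figure D5:**
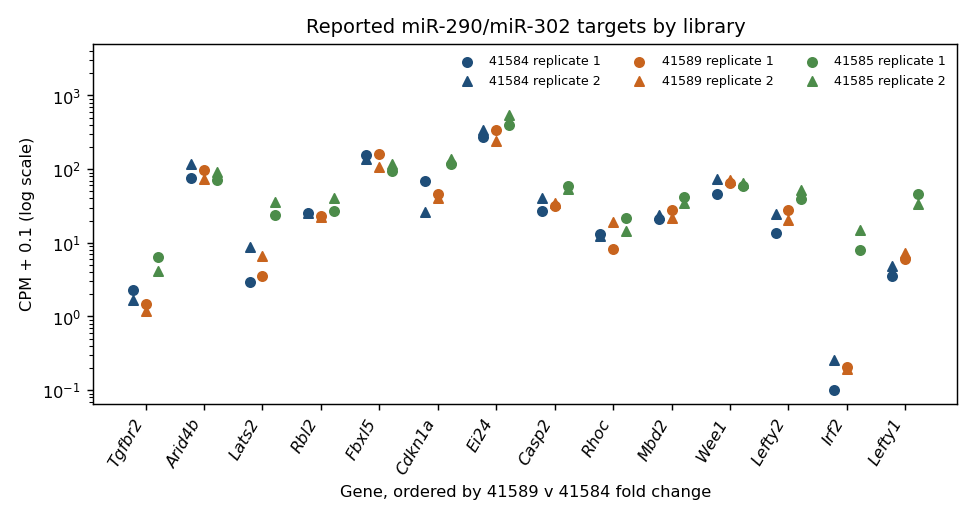
Level of the 14 tested miR-290/miR-302 targets (CPM + 0.1, log axis) in 41584 (blue), 41589 (orange) and 41585 (green), ordered by fitted 41589 versus 41584 fold change, with circles for replicate 1 and triangles for replicate 2. For Lats2, Cdkn1a, Lefty1, Tgfbr2 and Irf2 both 41585 libraries lie above the 4 libraries of 41584 and 41589.

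The let-7 targets likewise gave 0 calls of 16 between the lines, with a median of -0.072. Only Igf2bp3, given above, had an unadjusted p under 0.05. Hmga2, a chromatin protein of early development, was at 14.2 and 14.9 CPM in 41584, 14.2 and 12.7 CPM in 41589 and 68.0 and 102 CPM in 41585. It was lower in 41589 than in 41585 (-2.66 ± 0.34, adjusted p = 0.000972) and within -0.84 to 0.61 of 41584. Lin28a, which like its paralogue blocks let-7 maturation, went the other way. It was at 163 and 326 CPM in 41584, 212 and 262 CPM in 41589 and 18.02 and 22.4 CPM in 41585, a log2 difference from 41585 of 3.55 ± 0.37 (adjusted p = 0.000338). Both calls against 41585 were made in all 11 settings. Nras was also called higher than in 41585 (1.03 ± 0.22, adjusted p = 0.0156), which was lost in 5 of the 10 alternatives.

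Interferon-stimulated genes, which long double-stranded RNA can induce, were not called between the lines. Of 34 tested, 0 were called, 0 had an unadjusted p under 0.05, 25 had a fold above 0 and 9 below, and the median was 0.126. It was 0.07 with the GC trend removed, -0.04 with the first libraries alone and 0.5 with the second, and it ran from -0.07 to 0.37 when 1 library was left out. Both 41589 libraries lay above both 41584 libraries for 4 of the 34 (Oas1b, Oasl2, Ifi35 and Igtp), all under 4 CPM in both lines, and below them for 0, against 6.11% and 4.6% of all genes. Ifitm3, a membrane protein that blocks viral entry, was at 42.4 and 58.3 CPM in 41584 and 49.2 and 134 CPM in 41589 (0.86 ± 0.41, unadjusted p = 0.0536). Irf1, a transcription factor of the response, was at 10.4 and 11.8 against 9.73 and 21.8 CPM (0.51 ± 0.37). In both, only the second 41589 library was high. Oas1a, a sensor that makes 2′-5′ oligoadenylates, was at 4.35 and 7.46 against 6.95 and 10.5 CPM (0.57 ± 0.48).

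Against 41585 the same list was lower in 41589. Of the 34 genes 17 were called lower and 0 higher, against 5.22% and 3.11% of all genes, with a median of -1.722. In the 4 libraries of 41584 and 41589 alone, 22 of the list passed the count filter. For members near 0 in 41589, such as Gbp2, only a lower level than in 41585 could be found. The split and the median are thus partly set by the filter. Oas1a stood at 73.8 and 36.5 CPM in 41585 (-2.66 ± 0.47, adjusted p = 0.00632), Irf1 at 76.4 and 74.2 CPM (-2.25 ± 0.36, adjusted p = 0.00393) and Ifitm3 at 264 and 270 CPM (-1.54 ± 0.41, adjusted p = 0.0357). Gbp2, a guanylate-binding GTPase, was at 0.128 and 0 CPM in 41584, 0.107 and 0.274 CPM in 41589 and 12.8 and 13.8 CPM in 41585 (adjusted p = 0.000298). The Irf1 and Gbp2 calls were made in all 11 settings. The number called on the list depended on which library was left out, and no setting called a member higher. Isg15, Ifit3b and Ifi44, also on the list, had 0 reads in all 4 libraries of 41584 and 41589.

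Sensors and signalling proteins for double-stranded RNA gave 0 calls of 14, with a median of 0.235. It was 0.11 with the GC trend removed, 0.05 with the first libraries alone and -0.12 without the second 41589 library. Mavs, the mitochondrial adaptor of the RNA helicase sensors, was at 18.4 and 20.99 CPM in 41584 and 21.9 and 30.7 CPM in 41589, higher without overlap (0.42 ± 0.25, unadjusted p = 0.119). Ikbke, a kinase of the same pathway, was at 1.02 and 2.02 against 2.78 and 3.65 CPM (1.10 ± 0.67). Mavs was lower than in 41585 (-0.90 ± 0.25, adjusted p = 0.0416), a call lost in 6 of the 10 alternatives. Interferon receptors and JAK-STAT genes gave 0 calls of 13 with a median of 0.012.

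Markers of embryonic stem cells were present in all 4 libraries. Their summed level was 5700 and 5220 CPM in 41584 and 5420 and 6190 CPM in 41589, and 0 of 10 were called (median 0.046). Pou5f1, a core pluripotency factor, was at 352 and 386 CPM in 41584 and 275 and 791 CPM in 41589 (0.53 ± 0.43), with the high value in the second 41589 library. Zfp42 (785 and 815 against 836 and 849 CPM) and Nanog (757 and 626 against 760 and 573 CPM) were closer between lines. The wider list of naive and core pluripotency genes gave 0 calls of 22 (median 0.05), and formative epiblast genes 0 of 13 (median 0.14). Markers of other cell types were low. Their summed levels over the 4 libraries were 56.3 to 87.6 CPM for trophectoderm, 6.95 to 8.58 CPM for mesendoderm, 35.4 to 60.3 CPM for neuroectoderm and 7.93 to 39.1 CPM for fibroblasts. None of the 10, 3, 5 and 2 tested members was called, and the medians were 0.093, -1.336, -0.232 and -0.117.

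No gene of the germline or two-cell-like lists was called between the lines, but some germline and two-cell-like genes differed between the replicates of both lines. Between replicate 2 and replicate 1, tested in both lines together, 32 of 13510 genes were called (0.237%), 12 higher (0.0888%) and 20 lower (0.148%) in replicate 2. Unadjusted p was under 0.05 for 881 (6.52%). That fit used 4 libraries for line and replicate number, which leaves little information on the spread of each gene. Its p-values therefore lean on the spread shared over genes. As no label pairs the libraries by number, they describe these libraries and not a replicated effect. Stra8, the gatekeeper of meiosis, was at 98.3 and 12.3 CPM in 41584 and 100 and 6.39 CPM in 41589, a replicate difference of -3.47 ± 0.46 (log2, adjusted p = 6.44e-10). Smc1b, a meiotic cohesin subunit, was at 108 and 12.9 against 106 and 17.5 CPM (-2.81 ± 0.44, adjusted p = 1.13e-06). Stra8 was also lower in the second library of 41585 (66.7 and 12.2 CPM) and of SOM (69.6 and 2.63 CPM). It was at 119 and 89.3 CPM in WT and 14.4 and 19.9 CPM in KO. Smc1b stood at 62.7 and 55.7 CPM in 41585, 29.1 and 20.1 in SOM, 80.3 and 57.7 in KO, 205 and 95.2 in WT. Between the lines Stra8 and Smc1b differed by -0.06 ± 1.58 and 0.02 ± 0.84. Enox1, a cell-surface oxidase, was the reverse, at 6.26 and 116 CPM in 41584 and 23.3 and 78.1 CPM in 41589 (2.94 ± 0.46, adjusted p = 1.13e-06).

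Nxf7 and Usp17la were further genes lower, and Spink1, Exoc3l and Notum further genes higher, in replicate 2 of both lines. Nxf7, related to an mRNA export factor, fell from 22.6 to 0.466 CPM in 41584 and from 5.99 to 0.274 CPM in 41589 (adjusted p = 0.000615). Usp17la, a deubiquitinase gene of the two-cell-like list, fell from 12.8 to 1.40 and from 6.31 to 0.274 CPM (adjusted p = 0.0316). Notum, a secreted inhibitor of Wnt, rose from 1.92 to 14.9 and from 3.10 to 26.7 CPM (adjusted p = 0.0316). Spink1 (0.639 to 22.9 and 1.71 to 10.9 CPM) and Exoc3l (1.53 to 8.71 and 0.535 to 15.9 CPM) rose as well. These genes were named for a large replicate difference in these same 4 libraries, so their separation by replicate number followed from the choice. Nxf7 was lower in the second library elsewhere too, at 6.20 and 0.772 CPM in 41585 and 3.09 and 0.939 CPM in SOM. Exoc3l was about even there, at 14.0 and 14.8 CPM in 41585 and 8.57 and 9.96 CPM in SOM.

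Of 15 two-cell-like genes 0 were called between the lines and 14 had a fold below 0 (median -0.749). The median was 0.16 with the first libraries alone and -2.28 with the second. Their summed level was 151 and 100 CPM in 41584 and 163 and 22 CPM in 41589, so of these lines the second 41589 library alone was low. In SOM the sum was 102 and 16.9 CPM, and in 41585, KO and WT it ran from 56 to 255 CPM. Tdpoz4 had the smallest p of the list, at 1.28 and 2.49 against 0.642 and 0.183 CPM (-2.17 ± 0.85, unadjusted p = 0.0246). Of 19 germline genes silenced by DNA methylation 0 were called and 18 had a fold below 0 (median -0.501). That median was -0.27 and -0.6 in the first and second libraries and -0.52 with the GC trend removed. It was 0.11 without the first 41584 library, -0.06 without the second 41589 library and -1.2 without the first, so its sign and size depended on single libraries. Fkbp6, a co-chaperone of the piRNA pathway, was at 1.79 and 2.95 against 1.18 and 0.913 CPM (-1.17 ± 0.62). Stag3, a meiotic cohesin subunit, was at 144 and 106 against 107 and 69.9 CPM (-0.50 ± 0.30). Hormad1, of the meiotic chromosome axis, was at 17.5 and 63.3 against 25.0 and 12.3 CPM (-1.11 ± 0.60), and only the second 41584 library was high.

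Imprinted genes varied between libraries of the same line. Of 21 tested, 0 were called (median 0.249, and 0.73 and -0.27 in the first and second libraries). Grb10, an adaptor that restrains insulin signalling, was at 365 and 544 CPM in 41584 and 43.2 and 363 CPM in 41589. The lines did not overlap by a margin of 365 to 363 CPM, and the fitted fold was -1.16 ± 0.62 (unadjusted p = 0.0854). Without the second 41589 library it was -3.41, and in the first libraries alone -3.07. Plagl1, a zinc-finger regulator of the imprinted network, was at 0.767 and 1.55 against 8.45 and 1.64 CPM (2.12 ± 1.11), high in the first 41589 library only.

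The maternally expressed RNAs of the Dlk1-Dio3 region on chromosome 12 were near absent from the first 41584 library. Meg3 was at 1.53 and 188 CPM in 41584 and 133 and 202 CPM in 41589 (0.83 ± 1.79). Rian was at 8.95 and 657 against 550 and 460 CPM, and Mirg at 0.256 and 15.1 against 13.1 and 28.3 CPM. The 3 transcripts were low together in that library and in none of the other 3 libraries of these lines. The second KO library was low as well, with Meg3 at 135 and 1.08 CPM, Rian at 385 and 8.78 CPM and Mirg at 15.5 and 0 CPM in KO, whereas Meg3 was at 70.5 and 113 CPM in WT.

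The remaining lists also gave 0 calls between the lines, and their medians often changed sign between the pairs. Cytosolic ribosomal protein genes (24 tested) had a median of 0.182 in the fit, -0.23 in the first libraries, 0.6 in the second and 0.04 with the GC trend removed. The 13 mitochondrially encoded genes had -0.199, 0.4, -0.77 and 0.07 in the same order. Glycolysis and hypoxia genes (23) had 0.26, -0.14, 0.98 and 0.2, and cholesterol synthesis genes (13) 0.175, -0.01, 0.69 and 0.16. Epithelial adhesion genes (22) had -0.106, -0.38, 0.67 and -0.14, and genes of the ATF4 and endoplasmic reticulum stress response (15) -0.283, -0.69, 0.3 and -0.34. Immediate early genes (14) had 0.328, -0.07, 0.59 and 0.18. The median of all genes was -0.006 in the first libraries and 0.091 in the second, so the cholesterol synthesis and immediate early lists were near it in the first, and the other 5 lists had medians of opposite sign in the 2 pairs.

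In the fit to all libraries medians were within 0.2 of 0 for genes of p53 (21 tested, -0.045), the G1/S transition (21, -0.067), Nodal, TGF-beta and BMP signalling (19, 0.078), DNA methylation (11, 0.118) and the mesenchymal transition (12, -0.19). They left that range in some settings: without the second 41584 library the median was 0.29 for the G1/S and 0.31 for the Nodal, TGF-beta and BMP list, without the first 41589 library it was 0.28 for DNA methylation, and without the second it was -0.38 for the mesenchymal transition. The 7 tested Y-linked and X-inactivation genes had -0.316, with 0.47 and -0.77 in the first and second libraries.

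A few genes were not read in 1 line. Of the tested genes 30 had no read in 41584, of which 10 had reads in both 41589 libraries, and 13 had none in 41589, of which 4 had reads in both 41584 libraries. The counts behind them were small. The libraries held 14392146 counted reads in 41584 and 20047026 in 41589, so a count of 0 is more likely in 41584. Genes with no read in a line passed the count filter through other libraries, so these numbers partly follow from that filter. Ren1, the renin gene, had 0 reads in 41584, 5 and 3 in 41589 and 14.5 and 12.6 CPM in 41585. Against 3 reads over 41584, an upper limit for a count of 0, the 8 reads of 41589 were 1.87-fold higher after scaling for depth. The ratio leaves out the counting error of the 8 reads, so it is not a lower bound.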

How the data were processed

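PolyA RNA was made into TruSeq libraries by a reverse-stranded protocol, per the labels' protocols, and sequenced on the HiSeq2000. The authors deposited raw counts for 47643 genes, without normalization. Reads were aligned with STAR 2.4.2a to mm10 (GRCm38), per the submitters' processing notes. The counting program, its strand setting and the annotation release: not given in the sources used here. GENCODE M21 gave symbols to 47224 genes.

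Genes were filtered with filterByExpr, scaled by TMM and tested with edgeR 4.0.16 (R 4.3.3; quasi-likelihood, robust, 1 mean per group over 12 libraries, Benjamini-Hochberg adjusted p under 0.05). Folds are log2 ± SE, with 95% intervals; log2 CPM used a prior count of 2. DESeq2 1.42.0, RLE scaling, no filter, the 4 libraries alone, a replicate term and leaving out libraries were alternatives; single-pair fits and removal of the GC and length trend were chosen after seeing the data. The code was tested on simulated data.

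The comparison, the 31 gene lists and the naming rule were chosen with earlier results of these data known. The rule named Dicer1 and called genes, or where none was called 8 uncalled genes per direction with the smallest p, libraries that did not overlap and at least 5 CPM; of each list the members with the smallest p; and the 6 genes of largest replicate difference per direction. Not all named by it are printed, and further members printed for lists were chosen after their values were seen.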

Additional observations from a re-analysis of the deposited data

How the results depend on the processing

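The count of 0 between 41589 and 41584 held with DESeq2, RLE scaling, the 4 libraries alone and the GC trend removed (134 genes at an unadjusted p under 0.05). It became 3 without the filter, 1 with the first libraries alone and 3 with the second, and 0 to 1 when 1 library was left out. The count of 1219 against 41585 became 2271 without the filter, 563 in the 4 libraries alone, 1728 with DESeq2, and 306 to 2435 when 1 library was left out. The 32 genes that differed by replicate became 13 without the filter.

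Replicate numbers pair the samples in no label, and deviations of 41584 and 41589 with the same number correlated at r = 0.182. With the replicate block 0 genes were called between the lines, in all 12 libraries (112 at an unadjusted p under 0.05), in the 4 libraries (30) and with the GC trend also removed (179). The block gave 1501 and 1415 against 41585.

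The log2 folds of these uncalled genes changed sign between 41589 and 41584, and the cause was not tested. When 1 library was left out they ran from -2.63 to 0.36 for Dab2, -2.10 to 0.53 for Col4a1, -0.05 to 1.41 for Ifitm3, -0.20 to 0.98 for Irf1, -0.77 to 0.83 for Lats2, -0.66 to 0.76 for Cdkn1a, -0.02 to 0.79 for Rangap1 and -0.27 to 0.53 for Ppp4r1. They ran from -0.23 to 0.55 for Hdac1, -0.16 to 6.76 for Meg3, -1.76 to 0.09 for Hormad1, -0.44 to 1.10 for Pou5f1, -3.11 to 2.11 for Stra8 and -1.79 to 2.26 for Smc1b. With the first libraries alone the fold was -0.08 for Irf1, 0.29 for Lats2, 0.01 for Hmga2, -0.33 for Rangap1, 0.52 for Hormad1, -0.35 for Pou5f1, 0.03 for Stra8 and -0.03 for Smc1b. With the second alone it was 0.80 for Col4a1 and 0.66 for Cdkn1a. With the GC trend removed it was -0.01 for Hdac1 and -0.15 for Smc1b, and with the replicate block as well 0.01 for Hmga2. With the block in the 4 libraries it was 0.06 for Cdkn1a.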
